A study of Mus musculus with 18 samples.

Results

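The H3K4me3 landscape of wild-type mouse prospermatogonia at E17.5 was described from the 3 wild-type H3K4me3 libraries, out of 18 samples in the series. The libraries were chosen by their genotype and epitope labels alone. Of 141925 regions covered by a peak in any of the 3 peak lists, 62189 were covered in all 3. Each library was a CUT&RUN experiment, in which an antibody directs a nuclease to cut and release the chromatin around a histone mark, on 4000 nuclei. The nuclei came from cryopreserved cells sorted for Oct4-GFP, a reporter of the germ line. All 3 carried the genotype Tet1+/+, were labelled batch 1 and were biological replicates of a single group. No source used here states the strain or how many embryos gave each replicate. The libraries of Tet1 mutant cells and the IgG control libraries were not used here, and no comparison between genotypes was made. With a single group there was nothing to test, so values are given per library, or as mean ± SD over the 3 libraries (n = 3), without p-values.

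Prospermatogonia are the fetal male germ cells that have left the cell cycle and will found the spermatogonial stem cells after birth. Their genome, largely stripped of DNA methylation in the earlier primordial germ cells, acquires it anew during this arrest. Trimethylation of histone H3 lysine 4 sits on nucleosomes around transcription starts, is favoured by CpG-rich DNA and is unfavourable to the de novo DNA methyltransferases. It is found on active promoters and also on silent developmental promoters that carry Polycomb marks, so a peak is not a measure of transcription.

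The 3 libraries differed in how many peaks were called. Replicates 1, 2 and 3 had 95523, 83586 and 128701 peaks on chromosomes 1 to 19, X and Y, covering 83.4, 76.6 and 109 Mb. Replicate 3 thus had the most peaks. Their median length was the lowest, 641 bp against 725 and 780.0 bp, but it also had the longest peak (8881 bp) and the most peaks of 4 kb or more (259, against 150 and 130). Of the regions seen in a single library, 41580 were from replicate 3, 11315 from replicate 1 and 4676 from replicate 2. Regions common to all 3 held 72.6%, 81.6% and 52.6% of the peaks of replicates 1, 2 and 3, and 85.0%, 90.4% and 74.7% of the covered bases. The depth of each library is unknown because the lists hold no read counts, and its part in these differences was not tested. In a sorted population, a mark in fewer cells and a weaker mark in every cell cannot be told apart.

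Promoters were where the libraries shared most. A region was assigned to a promoter when it reached within 1 kb of an end of a coding gene. Starts of non-coding genes, and starts inside a coding gene, were not counted. The gene body and intergenic classes can therefore include such starts. Of 19774 promoter regions, 15445 (78.1%) were present in all 3 libraries, against 13097 of 36897 (35.5%) inside genes and 33647 of 85254 (39.5%) between genes. By number, the shared set was nevertheless mostly intergenic: 24.8% of its regions lay at promoters, 21.1% in gene bodies and 54.1% between genes. The promoter regions were longer, with a median of 1584 bp covered, compared with 989 bp in gene bodies and 910.3 bp between genes. Of the shared intergenic regions, 5371 (16.0%) lay within 10 kb of a coding gene, 14919 (44.3%) lay 10 to 100 kb away and 13357 (39.7%) lay farther.

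Long regions were a small, promoter-rich class. Peaks covered 4 kb or more in each library in 169 regions, and 146 of these were at promoters, 19 within gene bodies and 4 between genes. The longest lay on mm10 at chr4:109973672-109987482 and spanned Dmrta2, which encodes a DM-domain transcription factor of the developing forebrain. It held 11972, 12279 and 12543 bp of peaks in replicates 1, 2 and 3 (12265 ± 286 bp), and the 3 values lay close together. Next came the region at Tnrc18 (9490.0 ± 542 bp), the region at the tumour suppressor Hic1 (8581 ± 628 bp) and the region at the forebrain homeobox gene Otx1 (8388 ± 254 bp). The other 6 of the 10 longest lay at Gas2l1 and Rasl10a, the forkhead gene Foxb2, Skor1, the growth factor gene Fgf9, Gata3 and the heparan sulphate sulphotransferase gene Hs3st3b1. Their means ran from 7454 to 8326 bp.

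Away from coding genes by more than 10 kb, the longest shared region lay at chr6:30172503-30180740, 19045 bp from the nearest coding gene and between Nrf1 and Ube2h. Its covered length was 6542, 6924 and 7535 bp (7000.3 ± 501 bp). The one after it, at chr5:79810024-79815954, held 4728, 5415 and 5153 bp and lay 1203131 bp from any coding gene. A further region of 4882 ± 1558 bp lay 34010 bp from Dmrta2, and was much longer in replicate 3 (6561 bp) than in replicate 1 (3483 bp). Within gene bodies, the longest after the Gata3 region were in Cyp26b1, the retinoic acid hydroxylase gene (7350.0 ± 193 bp), the imprinted gene Gnas (5845 ± 959 bp) and the receptor phosphatase gene Ptprn2 (5606 ± 189 bp).

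For genes, the marked end was the gene end with more covered bases within 1 kb, and breadth was the number of peak-covered bases within 5 kb of it. A gene was called marked when a peak lay within 1 kb of that end in all 3 libraries, which held for 14827 of 21887 coding genes (67.7%). Marked genes were broad with 4000 bp or more in every library (413 genes, 1.89%) and narrow with under 1500 bp in every library (1842, 8.42%). The other 12572 (57.4%) were intermediate. With the lower line of 3000 bp in every library, 1298 of the 14827 marked genes (8.75%) would pass. A further 1894 genes (8.65%) were partial, with a peak in some libraries only, and 5166 (23.6%) were unmarked, with no peak near either end in any library. Of the unmarked genes, 2630 (12.0% of all coding genes) had no peak from 5 kb before to 5 kb after the gene in any library. Of the 1062 partial genes with a peak in 2 libraries, 532 lacked it in replicate 2, 435 in replicate 1 and 95 in replicate 3.

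**Figure D1:**
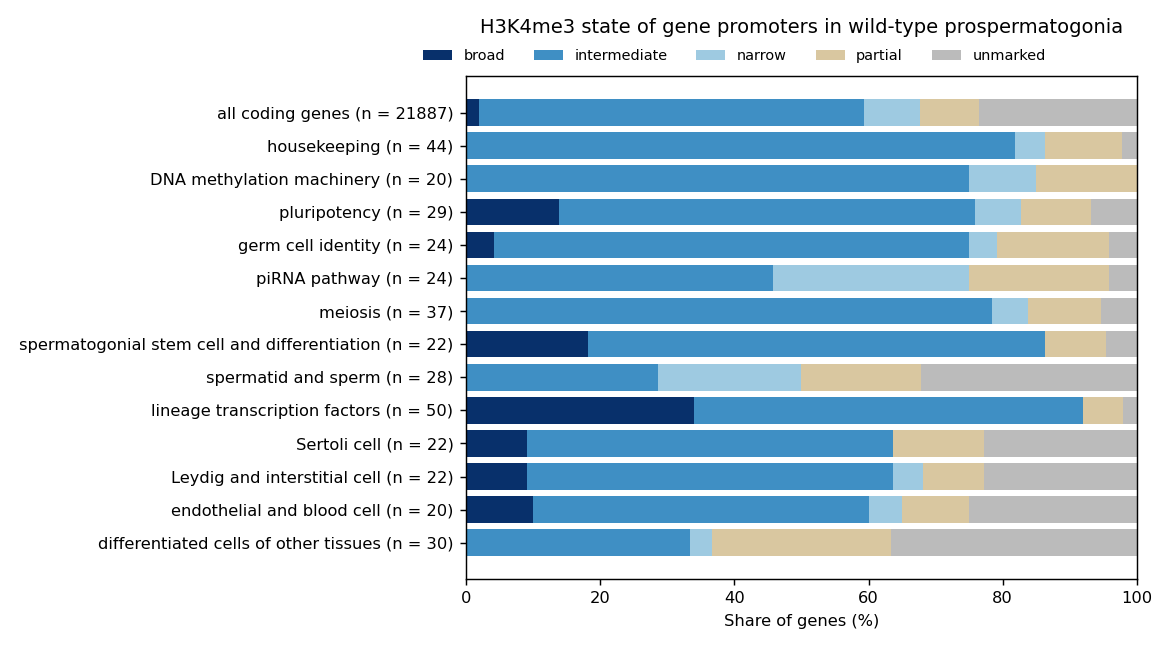
Share of genes (horizontal axis, percent) that were broad, intermediate, narrow, partial or unmarked in each of the 13 gene lists and over all 21887 coding genes. Lineage transcription factors have the largest broad share of the lists (34.0%), and genes of differentiated cells of other tissues the smallest marked share (36.7%).

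The median marked gene had 1935 bp covered, with an interquartile range from 1478 to 2555 bp, and 1 in 100 exceeded 5475 bp. By library the medians were 1809, 1840.0 and 2206 bp. Replicate 3 gave the largest value for 9042 of the marked genes (61.0%). A typical gene varied by 389.8 bp between libraries (median SD), or 19.9% of its mean. The thresholds fell in a continuous range: Ptpru (4000 bp in its lowest library) was just inside broad and Fscn1 (3997 bp) just outside. Likewise Mapkbp1 (1499 bp in its highest library) was just inside narrow and Saxo1 (1500 bp) just outside; these 4 genes were chosen by their values.

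Broad genes were mostly not single long peaks. The median broad gene had 3 separate peaks in its window in each library, and 4 of the 413 (0.969%) had a single peak in every library, compared with 1018 of the 1842 narrow genes (55.3%). Another coding gene end lay within 5 kb for 171 broad genes (41.4%) and for 35.8% of marked genes. Breadth there can include a neighbour's mark.

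Genes with an annotated start allowed the mark to be placed by strand. RefSeq promoter sequences (GRCm38.p6, the assembly also called mm10) were matched for 17492 of the 21887 coding genes (79.9%), and 11860 of these were marked at that start. For a gene with several listed starts, the one with the most covered bases within 1 kb was taken, or the first listed on ties. The summit of the promoter's strongest peak by fold lay at a median of 258, 164 and 192 bp downstream of the start in replicates 1, 2 and 3. Upstream coverage had a median of 782, 794 and 978 bp, against 963, 978 and 1141 bp downstream. The mark thus extended more into the gene than away from it in every library. Narrow genes leaned downstream most often (74.2%), compared with 61.7% of intermediate and 62.8% of broad genes.

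**Figure D2:**
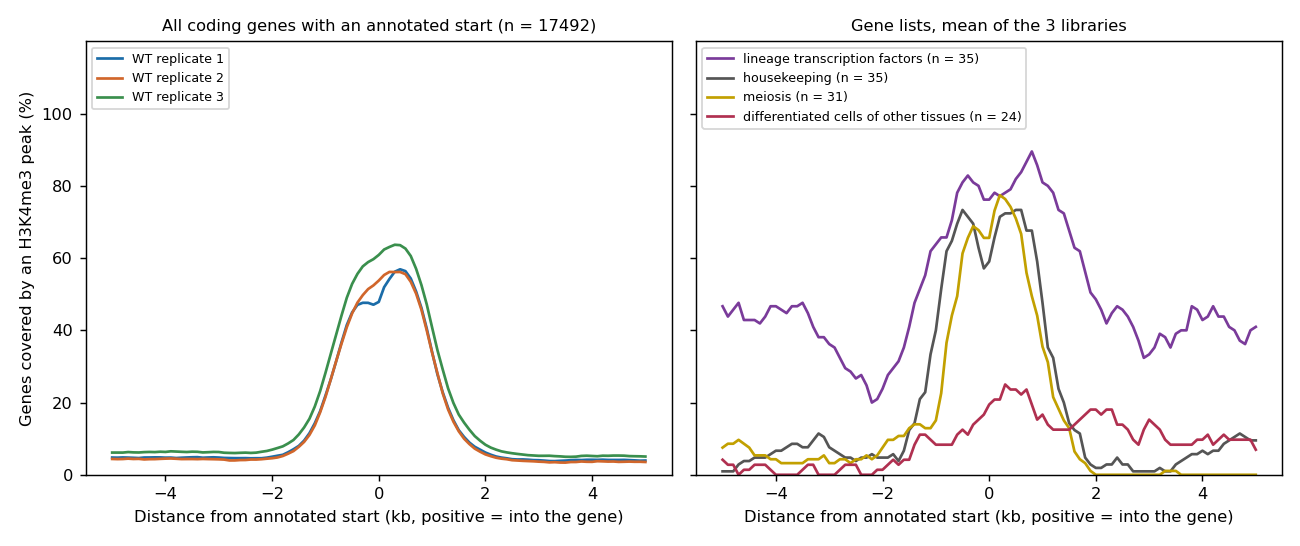
Percent of genes whose position lies inside a peak (vertical axis) by distance from the annotated start in kb (horizontal axis, positive into the gene), for all coding genes in each library (left) and for gene lists as the mean of the 3 libraries (right). Over all coding genes the curve was highest between 200 and 400 bp downstream, at 56.9%, 56.2% and 63.7% in replicates 1, 2 and 3.

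Promoter sequence differed between marked and unmarked genes. Where several starts were listed, coverage chose the start whose sequence was read. The contrasts of CpG, and of motifs below, are therefore partly selected by the mark itself. CpG density was expressed as the observed number of CG pairs over that expected from the base composition of the 300 bases from 250 before to 50 after the start. Its median was 0.73 in broad, 0.77 in intermediate, 0.56 in narrow, 0.29 in partial and 0.14 in unmarked genes, with states taken at the annotated start. The share of promoters at 0.6 or above was 69.9%, 74.2%, 45.3%, 23.9% and 1.50% in the same order, against 49.9% of all 17492. Read the other way, 18.0% of promoters with a ratio under 0.3 were marked, 74.3% of those from 0.3 to 0.6, 95.7% from 0.6 to 0.9 and 96.7% above that. Among marked genes the median breadth ran from 1523 bp in the lowest class to 1979 bp in the highest. The broad share of all promoters was 0.223%, 2.43%, 3.01% and 1.59% in the same classes. Shares and breadths have no common scale, so they were not weighed against each other. By their medians, broad genes were no richer in CpG than intermediate ones.

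**Figure D3:**
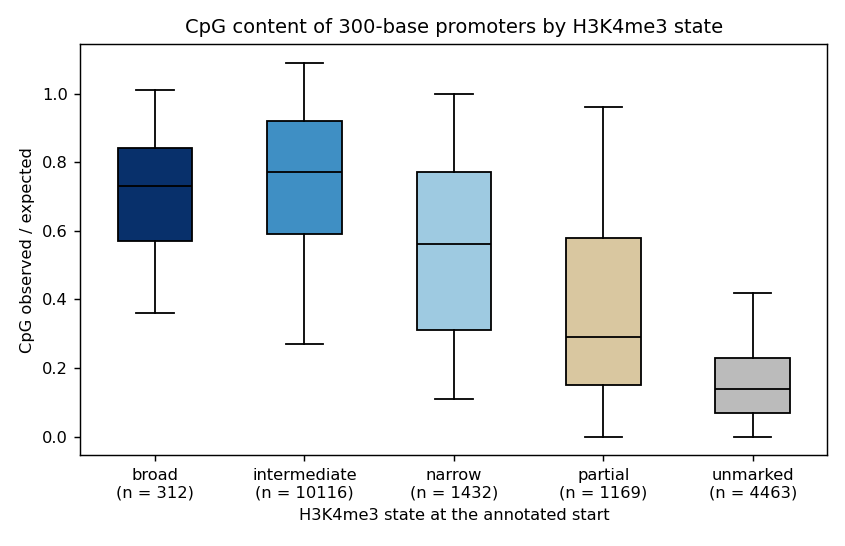
CpG observed over expected ratio (vertical axis) of the 300-base promoters by H3K4me3 state at the annotated start, with the median, the quartiles as a box and whiskers from the 5th to the 95th percentile of genes. The boxes of marked states lie above that of the 4463 unmarked genes, whose median is 0.14, and the broad box (median 0.73) does not lie above the intermediate one (0.77).

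The promoters of 6 genes show this range, with every CG pair in capitals. They were chosen after their values were seen, as a broad, a narrow, an intermediate, a partial and a pair of unmarked genes of different roles. Each runs 5′ to 3′ on the gene's own strand, from RefSeq on GRCm38.p6: Lhx1 (broad, chr11:84525485-84525784, minus strand), Ddx4 (narrow, chr13:112652261-112652560, minus strand), Sycp3 (intermediate, chr10:88459337-88459636, plus strand), Nanog (partial, chr6:122707239-122707538, plus strand), Acrv1 (unmarked, chr9:36692970-36693269, plus strand) and Alb (unmarked, chr5:90460620-90460919, plus strand).
Lhx1: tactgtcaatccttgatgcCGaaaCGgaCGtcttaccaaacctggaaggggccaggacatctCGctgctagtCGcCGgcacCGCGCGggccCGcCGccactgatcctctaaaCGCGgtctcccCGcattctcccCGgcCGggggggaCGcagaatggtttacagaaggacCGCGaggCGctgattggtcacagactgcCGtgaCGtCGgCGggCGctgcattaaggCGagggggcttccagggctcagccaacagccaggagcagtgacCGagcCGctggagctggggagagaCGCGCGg
Ddx4: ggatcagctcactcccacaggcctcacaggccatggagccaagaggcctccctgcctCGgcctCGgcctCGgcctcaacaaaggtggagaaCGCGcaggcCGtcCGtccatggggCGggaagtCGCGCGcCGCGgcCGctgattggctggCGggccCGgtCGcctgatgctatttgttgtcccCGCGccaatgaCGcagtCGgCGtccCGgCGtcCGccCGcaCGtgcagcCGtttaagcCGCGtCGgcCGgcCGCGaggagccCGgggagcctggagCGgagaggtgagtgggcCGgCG
Sycp3: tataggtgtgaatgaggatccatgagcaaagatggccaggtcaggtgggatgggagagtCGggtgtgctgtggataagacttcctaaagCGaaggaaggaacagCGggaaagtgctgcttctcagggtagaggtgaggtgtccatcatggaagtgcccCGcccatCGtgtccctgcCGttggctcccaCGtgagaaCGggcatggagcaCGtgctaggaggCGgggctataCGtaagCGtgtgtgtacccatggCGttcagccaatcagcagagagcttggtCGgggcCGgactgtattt
Nanog: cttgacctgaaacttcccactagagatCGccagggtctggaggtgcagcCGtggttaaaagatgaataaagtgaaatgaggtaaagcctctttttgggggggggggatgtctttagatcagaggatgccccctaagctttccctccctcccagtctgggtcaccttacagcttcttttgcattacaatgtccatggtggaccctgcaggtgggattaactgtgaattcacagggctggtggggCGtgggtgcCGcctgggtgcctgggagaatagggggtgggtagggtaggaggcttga
Acrv1: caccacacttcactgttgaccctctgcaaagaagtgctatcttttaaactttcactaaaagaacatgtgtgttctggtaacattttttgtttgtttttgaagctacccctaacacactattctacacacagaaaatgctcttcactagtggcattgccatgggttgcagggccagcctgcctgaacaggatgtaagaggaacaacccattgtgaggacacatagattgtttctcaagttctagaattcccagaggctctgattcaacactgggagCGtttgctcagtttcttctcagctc
Alb: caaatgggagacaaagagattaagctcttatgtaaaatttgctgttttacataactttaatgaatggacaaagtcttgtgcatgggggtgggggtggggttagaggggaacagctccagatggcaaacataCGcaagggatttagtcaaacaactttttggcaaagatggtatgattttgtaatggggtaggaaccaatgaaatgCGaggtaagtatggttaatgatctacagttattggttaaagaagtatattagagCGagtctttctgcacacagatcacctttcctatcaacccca
The Lhx1 stretch holds 31 CG pairs (ratio 0.96) under 6854 bp of mean coverage, yet that of Ddx4 holds 38 (0.98) under 1236 bp. Sycp3 has 15 (0.67) and 2673 bp. In Nanog there are 4 (0.19) and 1593 bp, whereas Acrv1 and Alb, with 1 and 3 (0.07 and 0.27), have no covered base in any library. In these examples a CpG-rich start was found with broad coverage at Lhx1 and with narrow coverage at Ddx4. Over all genes the states differed, with 69.9% of broad and 45.3% of narrow promoters at a ratio of 0.6 or above.

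Core promoter motifs were searched on both strands as exact letters, each counted independently so that overlapping matches of different motifs both count. The GC box GGGCGG occurred in 65.1% of broad, 67.9% of intermediate, 46.1% of narrow and 5.56% of unmarked promoters, and in 47.6% of all promoters of that length. The TATA box TATAAA went the other way, at 8.65%, 6.36%, 10.8% and 28.2%, against 13.1% of all. The CCAAT box CCAAT differed little, at 44.6%, 37.7%, 41.9% and 39.8%, against 38.8% of all. An ETS site, CCGGAAG, was present in 17.1% of intermediate, 16.0% of narrow and 8.01% of broad promoters, in 1.46% of unmarked ones and in 12.2% of all. These are matches of letters that depend on base composition, not sites of binding.

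Ranked by breadth, the top of the genome was made up mainly of developmental transcription factors. Dmrta2 was first, with 8595, 7427 and 8805 bp covered (8276 ± 742 bp). Irx3, an Iroquois homeobox gene of neural and limb patterning, followed with 8240, 7291 and 8682 bp, and Hs3st3b1 with 8113, 7914 and 7913 bp. Replicate 2 was the lowest for Dmrta2 and Irx3, whereas the Hs3st3b1 values had an SD of 115 bp. The next were Hic1, Otx1, the ciliogenic factor gene Rfx4, and the homeobox genes Tlx3 and Msx1, with means from 7343 to 7862 bp. Zfp503, the spinal cord homeobox gene Dbx1, Gata6, the receptor gene Pdgfra, Icam4, Gata2 and the early B-cell factor gene Ebf2 completed the 15 broadest, from 6912 to 7261 bp. Otx1 (near Ehbp1) and Icam4 (near Icam1 and Icam5) have other coding gene ends within 5 kb. By symbol, 62 of 164 homeobox genes (37.8%) were broad, as were 6 of 13 T-box, 9 of 44 forkhead, 3 of 5 Zic and 2 of 6 Gata genes, beside 1.89% of all coding genes. With the Sox, Wnt, Bmp and Fgf genes, these families accounted for 90 of the 413 broad genes (21.8%).

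At the other end, the narrowest marked gene was Clec12a, a lectin receptor of myeloid cells, with 239, 298 and 278 bp (272 ± 30.0 bp). Lipo2, the matrix protein gene Postn, Mrgpra9, the olfactory receptor genes Olfr24 and Olfr1145, Psg23, Rab44, and the neighbours Ifi27 and Ifi27l2a, which share their peaks, made up the 10 narrowest, up to 340.0 bp. Clec12a, Mrgpra9, Olfr1145 and Psg23 were not marked in all 3 libraries at their annotated start.

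**Figure D4:**
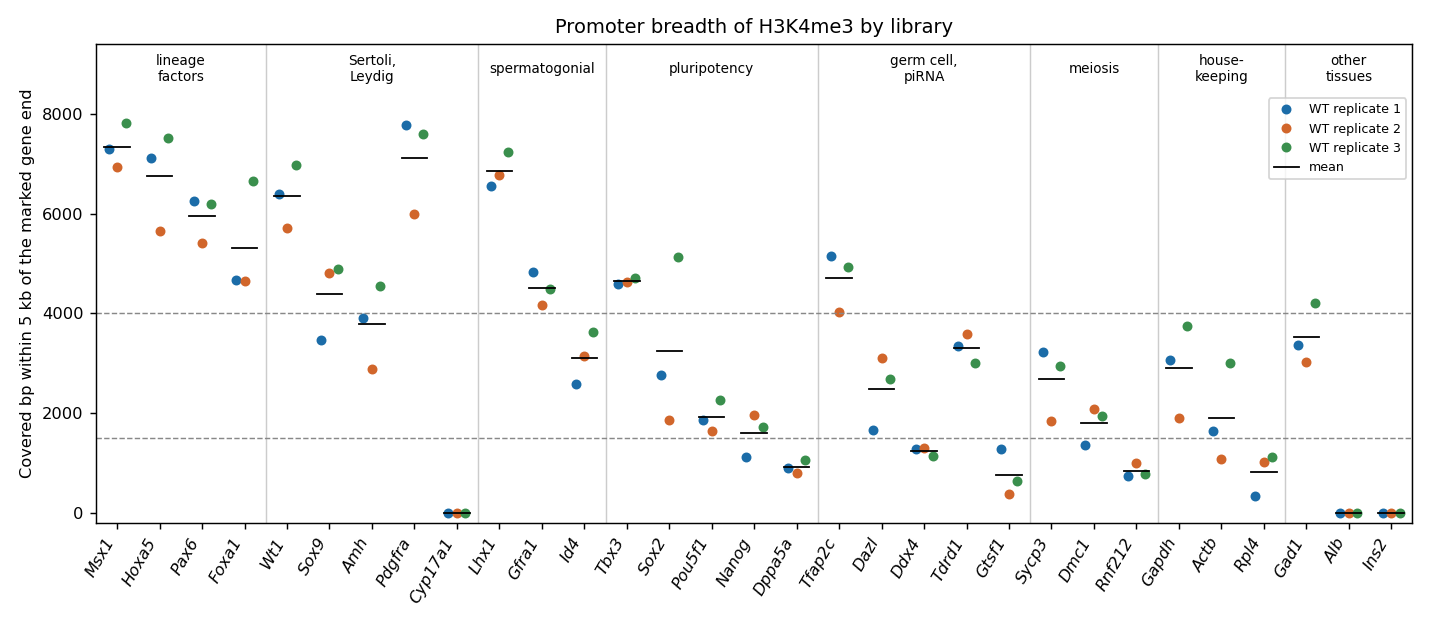
Covered bp within 5 kb of the marked end (vertical axis) for genes named in the text, with a point for each of the 3 wild-type libraries and a line at their mean. Dashed lines mark 4000 and 1500 bp: Msx1 lies above the upper one in every library (6935 to 7809 bp), Ddx4 and Rpl4 below the lower one, and Alb, Ins2 and Cyp17a1 at 0.

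Ranking by column 7, the authors' fold enrichment of each peak, gave other genes and was far less repeatable. Breadth correlated across the 14827 marked genes between pairs of libraries with Spearman's rho of 0.70, 0.75 and 0.73, and column 7 with rho of 0.15, 0.17 and 0.15. These are descriptions across genes, which are not independent replicates and share a library's depth. Within a library, breadth and column 7 had a rho of 0.34, 0.34 and 0.23. Of the 1483 broadest genes, 275 (18.5%) were also among the 1483 highest by column 7. The median percentile of column 7 was nonetheless ordered as breadth was, at 65.1 for broad, 53.7 for intermediate and 31.5 for narrow genes.

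The highest by median rank was Ubqln5, a testis-expressed ubiquilin gene, with folds of 25.7, 15.6 and 33.5, the ranks of which were 2, 272 and 5 of 14827. Fibin followed with ranks of 3057, 30 and 2, and Gm1979 with 12560, 14 and 33, so their places rested on replicates 2 and 3. Duxf3, of the double homeobox family, ranked 248, 37 and 1. Tal2, a bHLH gene, was high in every library (45, 9 and 785), as was Vwce (1, 45 and 288). Plcxd3, Gpr83, Frem3, Abca15, Ahcyl2, the neighbours Camta2 and Inca1, Fgf20 and Vamp8 completed the 15.

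**Figure D5:**
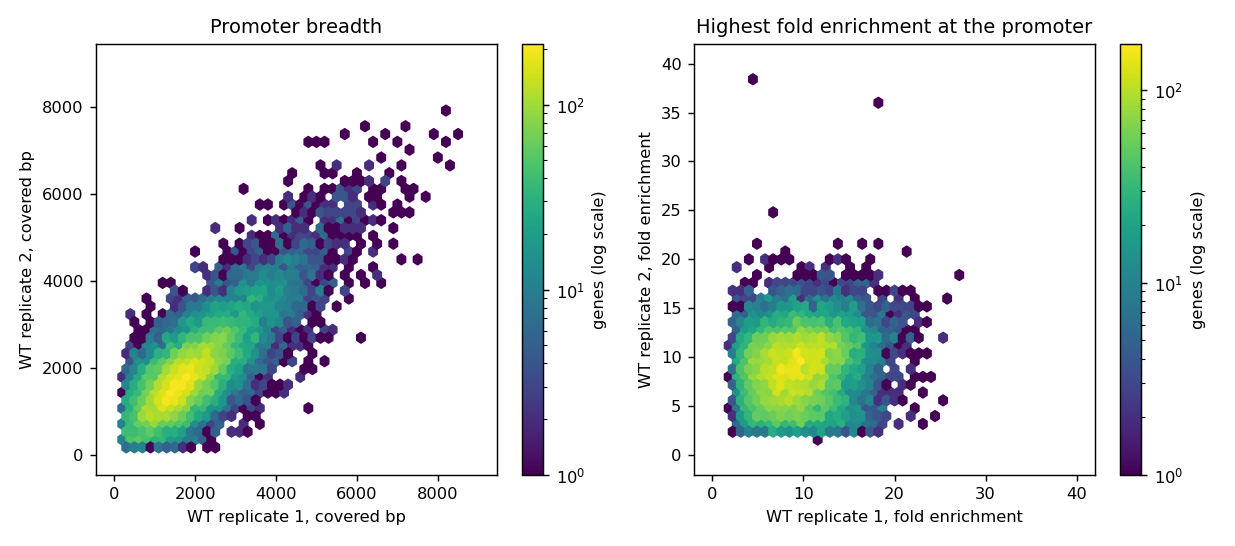
Values of replicate 2 (vertical axis) against replicate 1 (horizontal axis) for the 14827 marked genes, as covered bp within 5 kb of the marked end and as the authors' column 7 fold, with lighter, yellow cells holding more genes (log colour scale). The breadth cloud follows a line (rho 0.70) and the fold cloud hardly does (rho 0.15).

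The X chromosome stood apart. Of its 966 coding genes, 419 were marked (43.4%), against 14404 of 20665 autosomal genes (69.7%). None was broad, while 19.7% were narrow (autosomes 7.97%), 21.1% partial (8.16%) and 35.5% unmarked (22.1%). Marked X genes had median breadths of 1152, 987 and 1474 bp in the 3 libraries, each below the autosomal 1827, 1863 and 2226 bp. The broadest X gene was Sox3, a factor of spermatogonial progenitors, with 4797, 3874 and 5057 bp, which was under 4000 bp in replicate 2. The median CpG ratio of promoters was 0.45 on the X against 0.61 on the autosomes. Male cells carry a single X, and the parts of copy number and of promoter sequence in these values were not tested. On the Y chromosome 4 of 256 genes were marked.

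Gene lists are read here against all coding genes, of which 67.7% were marked, 1.89% broad and 23.6% unmarked, so that a list of this size with no broad member is near that background. Lineage transcription factors, which specify somatic tissues and are classic carriers of both active and Polycomb marks, were the broadest list. Of 50, 46 were marked and 17 broad, with a median of 4296 bp among marked members beside 1935 bp over all marked genes. Msx1 (7286, 6935 and 7809 bp), Gata6 (6475, 7195 and 7743 bp) and Hoxa5 (7118, 5649 and 7512 bp) were the broadest. All 3 were above 5000 bp in every library. The narrowest were the limb and heart gene Tbx5 (2508 ± 1157 bp), the homeobox cluster gene Hoxc8 (2859 ± 241 bp) and the neural crest gene Sox10 (2936 ± 400.1 bp), still above the median marked gene. Hnf4a, of liver and gut, was the unmarked member by gene end and partial at its annotated start. Pax3 was partial, with a peak within 1 kb of the end in 2 libraries and 6536, 1723 and 7184 bp in the window. Gata3 was partial at the gene ends used here, but at its annotated start it was broad, with 7789.7 bp. All 39 Hox genes were marked by gene end and 17 of them broad. Of the 22 with an annotated start, 20 were marked and 7 broad at that start. Hox genes lie in clusters, where breadth can include a neighbour's mark.

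Housekeeping genes were marked with moderate breadth. Of 44, 38 were marked and none was broad, and their median of 1950.5 bp was close to that of all marked genes. Rps18 (4342, 2242 and 3902 bp), Chmp2a (3999, 1514 and 4855 bp) and Tpi1 of glycolysis (3416, 3102 and 3659 bp) were the broadest, and the first pair were lowest in replicate 2. Each of these genes has other coding gene ends within 5 kb, so its breadth can include a neighbour's mark. Gapdh had 3066, 1905 and 3755 bp and Actb, for cytoplasmic actin, 1637, 1077 and 3012 bp. Rpl4, a ribosomal protein gene, was narrow with 332, 1013 and 1116 bp, as was the proteasome gene Psmb2 with 328, 889 and 1375 bp, and the X-linked RNA-binding protein gene Nono had 789, 414 and 1578 bp. Ywhaz, which encodes an abundant 14-3-3 protein, was called unmarked at its gene ends. Rplp0, Eef2, Hspa8, Sdha and Reep5 were partial. By family, 87 of 101 cytoplasmic ribosomal protein genes, 48 of 51 proteasome genes and 45 of 49 Nduf genes of respiratory complex I were marked.

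Of the 24 germ cell identity genes 19 were marked, 4 partial and 1 unmarked, with a median of 2484 bp. Tfap2c, a factor of primordial germ cell specification, was the broad member (5156, 4028 and 4938 bp). Prdm1, the germ cell repressor BLIMP1, had 3804, 3870 and 3718 bp, and Kit, the stem cell factor receptor, 3068, 3615 and 4371 bp. The RNA-binding regulator Dazl had 1661, 3101 and 2689 bp. Ddx4, the germ cell RNA helicase, was narrow in every library (1279, 1290 and 1138 bp). Tex101, a germ cell surface protein gene, varied most of the marked members named, from 258 bp in replicate 2 to 2400 bp in replicate 1. Nanos3 was unmarked at its ends, and Nanos2, Mael, Rhox13 and Tcfl5 were partial.

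The piRNA pathway, which silences transposons in fetal male germ cells, had 18 of 24 genes marked, 7 of them narrow (29.2% of the list, beside 8.42% of all coding genes) and none broad, with a median of 1344 bp. Tdrd1 was the broadest, at 3350, 3578 and 2998 bp, followed by Fkbp6 and Tdrd5. Tdrd1 and Fkbp6 have another coding gene end within 5 kb. Gtsf1, a piRNA-guided silencing factor, had 1276, 368 and 643 bp, Tex15 had 651, 832 and 1094 bp and the helicase gene Mov10l1 had 926, 313 and 1353 bp. Piwil2 was unmarked at its ends, and of the other PIWI genes Piwil1 was narrow (1143 ± 254 bp) and Piwil4 intermediate (1038 ± 493 bp).

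Genes of spermatogonial stem cells and of their differentiation were broader, with 19 of 22 marked, 4 broad, none narrow and a median of 3356 bp. Lhx1 (6556, 6769 and 7238 bp), a GDNF-responsive factor, the cyclin gene Ccnd2 (5457, 5843 and 6326 bp) and Bcl6b (5084, 4359 and 5728 bp) were the broadest. All 3 exceeded 4000 bp in each library. Gfra1, the GDNF receptor gene, was broad as well (4499 ± 335 bp). Stra8, the retinoic acid target at meiotic entry, had 1833, 2010 and 2195 bp, Ret 2278 ± 231 bp and Taf4b 2300.0 ± 191 bp, the 3 narrowest marked members. Dmrtb1 was unmarked at its ends, although at its annotated start it was intermediate, with 3367 bp.

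Meiotic genes, whose proteins act after birth in males, were marked in 31 of 37 cases, with none broad, 2 narrow and a median of 1591 bp. Msh5 of crossover formation (3138, 2619 and 3884 bp), Rec114 of double-strand break formation (2759, 2624 and 3578 bp) and Mei1 (3072, 2289 and 3406 bp) were the broadest by gene end. Each of them has another coding gene end within 5 kb. At their annotated starts Mei1 was unmarked and Rec114 had 1372 bp. Sycp3 of the synaptonemal complex had 3228, 1849 and 2943 bp and Sycp1 1503, 1674 and 2368 bp. Rnf212 (742, 991 and 780 bp), Mlh3 (880, 356 and 1795 bp) and Majin (982, 821 and 1621 bp) were the narrowest. Spo11, the nuclease that starts recombination, and Spata22 were unmarked at their ends; Spata22 had 1117 bp at its annotated start.

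Spermatid and sperm genes, used last in the lineage, were marked in 14 of 28 cases, with none broad, 6 narrow (21.4%), 9 unmarked (32.1%) and a median of 1269.5 bp. These shares were not tested against those of all coding genes. Acrv1, of the acrosome, and Tssk2, a spermatid kinase gene, had no covered base within 5 kb in any library. The other unmarked members were Prm1, Akap4, Spem1, Catsper1, Catsper4, Smcp and Tssk1. Izumo1, the sperm fusion protein gene, had 2785, 2856 and 3587 bp and was the broadest member by gene end, but at its annotated start it was partial, with 1683 bp. Another coding gene, Rasip1, has an end within 5 kb of the Izumo1 end used. Pgk2 (329, 821 and 1026 bp), the transition protein gene Tnp1 (1033, 910 and 1083 bp) and the protamine gene Prm2 (827, 852 and 1412 bp) were the narrowest. The median CpG ratio of this list was 0.20, against 0.71 for the meiotic genes and 0.73 for the DNA methylation machinery.

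Among pluripotency genes 24 of 29 were marked, 4 of them broad, with a median of 2454 bp. The broad ones were Otx2 (4774, 4925 and 5275 bp), Tfap2c, Tbx3 (4590, 4632 and 4704 bp) and Klf4 (4393, 4257 and 4144 bp). Pou5f1, the core factor whose reporter was used for the sort, had 1861, 1636 and 2270 bp. Sox2 varied more between libraries, at 2756, 1863 and 5121 bp. Nanog was partial, with a promoter peak in 2 of the 3 libraries and 1111, 1957 and 1712 bp within the window. Esrrb was narrow at its gene ends (1063, 769 and 461 bp) but intermediate at its annotated start, with 2755 bp. Dppa5a was narrow as well (888, 800 and 1060 bp), and Tfcp2l1 came next (1452, 477 and 1520 bp). Fbxo15 and Nr5a2 were unmarked at their ends, but Nr5a2 had 4292 bp at its annotated start.

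In the DNA methylation machinery 17 of 20 genes were marked, none broad and 2 narrow, with a median of 2042 bp. Nsd1, the H3K36 methyltransferase of intergenic chromatin (3474, 4002 and 3005 bp), the dioxygenase gene Tet1 (2570, 2415 and 3315 bp) and Setd2 (1846, 3299 and 3124 bp) were the broadest. Dnmt3l, the cofactor of de novo methylation in germ cells, was narrow with 1104, 1062 and 1422 bp (intermediate at its annotated start, with 1451 bp), while Mbd1 was low in replicate 2 (506 bp). Dnmt1, Dnmt3a and Zfp57 were partial by gene ends and intermediate at their annotated starts.

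Markers of somatic testis cells were marked and unmarked in shares near those of all coding genes (Sertoli 63.6% and 22.7%, Leydig and interstitial 68.2% and 22.7%). Their marked members were broader, with medians of 3663 and 2973 bp beside 1935 bp over all marked genes. The broad share was 9.09% in each list, beside 1.89% of all coding genes. Of 22 Sertoli cell genes 14 were marked, 2 broad and 5 unmarked, with medians among marked members of 3264, 3146 and 4016 bp in replicates 1, 2 and 3. Wt1 (6387, 5713 and 6973 bp), the inhibin gene Inha (5022, 5546 and 5274 bp, with Obsl1 nearby) and Sox9 (3459, 4811 and 4894 bp) were the broadest. Amh, the Mullerian hormone gene, had 3908, 2874 and 4551 bp, with Sf3a2 and Jsrp1 nearby. Ptgds and Cst9, secreted products of Sertoli cells, had no covered base in any library, and Gata1, Tsx and Defb19 were unmarked too. Of 22 Leydig and interstitial genes 15 were marked, 2 broad and 5 unmarked, with medians of 2555, 2494 and 3277 bp. Pdgfra (7775, 5990 and 7593 bp) and Insl3 (6693, 3958 and 7280 bp, with Jak3 and B3gnt3 nearby) were the broadest. The steroidogenic genes Cyp17a1 and Hsd3b1 had no covered base, and Star, Hsd17b3 and Dcn were unmarked.

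In endothelial and blood cells, 13 of 20 marker genes were marked, with medians of 1951, 2163 and 2418 bp. Gata2 (7048, 6627 and 7176 bp) and Tal1 (4547, 4201 and 4765 bp), both blood-forming regulators, were broad. The leukocyte and macrophage genes Ptprc, Csf1r and Adgre1 had no covered base within 5 kb of the gene end used, in any library. Over the whole gene and 5 kb on either side, Adgre1 held no peak, but Ptprc and Csf1r did. Pecam1 and Tie1, of endothelium, were unmarked, although Tie1 had 909, 1190 and 1191 bp in its window. Cdh5, Kdr, Tek, Flt1, Emcn, Sox17 and Cd34, also of endothelium, were marked, with 3910, 3754 and 3897 bp at Flt1. Emcn was narrow. Spi1 and Cd68, also of macrophages, were marked by gene end. Other coding gene ends lie within 5 kb of both, Mybpc3 for Spi1 and Mpdu1 and Eif4a1 for Cd68. At its annotated start Cd68 was partial, with 2031 bp. In the Leydig and interstitial list, Cyp11a1 of steroid synthesis was partial (1341, 0 and 1335 bp). Whether any peak at a somatic gene came from other cells in the sort was not tested.

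Genes of differentiated cells of other tissues were the least marked list, with 11 of 30 marked, none broad, 8 partial and 11 unmarked. The liver albumin gene Alb, the insulin gene Ins2 and the intestinal gene Fabp2 had no covered base within 5 kb in any library. Afp, Ttr, Myh6, Myh7, Tnnt2, Nppa, Lyz2 and Mb were the other unmarked members. The marked exceptions included Ckm of muscle (3592, 3404 and 3891 bp) and the neuronal genes Gad1 (3360, 3014 and 4199 bp) and Grin1 (3385, 2695 and 3349 bp). At their annotated starts Ckm was partial, with 1735 bp, and Grin1 narrow, with 936 bp, and both have another coding gene end within 5 kb. Of the large sensory families, 109 of 1110 olfactory receptor genes (9.82%) and 5 of 355 vomeronasal receptor genes (1.41%) were marked, and none was broad. Beta-defensin genes were marked in 4 of 42 cases and cytochrome P450 genes in 35 of 99, against 56 of 69 protocadherin and 84 of 108 sodium and potassium channel genes.

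The gene ends set part of these calls. Of marked genes with an annotated start, 9977 of 11801 (84.5%) had the marked end within 1 kb of it. Among unmarked genes with an annotated start, 353 of 4158 (8.49%) were marked in all 3 libraries at that start, as were 306 of 1533 partial genes (20.0%). In the lists, Mei1, Gapdhs, Acta1 and Rbfox3 were marked at a gene end but unmarked at the annotated start.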

How the data were processed

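H3K4me3 CUT&RUN was analysed in the 3 wild-type libraries. Per the submitters' processing notes, the build was mm10 and MACS2 2.1.0, Bowtie2 2.5.0, deepTools 3.5.1, Trim Galore, bedtools 2.27.1 and SAMtools 1.16.1 were used. No source used here states whether IgG libraries served as the peak-calling control. The deposited peak lists hold for each peak a score, a fold ratio (column 7) and −log10 p and q values, as the authors' caller gave them. All listed peaks had −log10 q of at least 2.00. Depth is unknown, since no counts were used.

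Peaks were merged with a minimum overlap of 1 bp into regions, each library keeping its own covered bp. Gene ends came from the RefSeq table, which gives no strand. Promoters were 1 kb either side of a gene end and breadth windows 5 kb. Column 7 was ranked within a list only. Sequences came from RefSeq, which gave no annotated start for chromosome 18. The members and the 13 lists (372 entries) were chosen with earlier results of these data known. Named genes were the list members, the 3 broadest and 3 narrowest marked and all unmarked ones first, and the 15 broadest, 10 narrowest and 15 highest by column 7; other members were picked after their values were seen. Some genes under this rule are not reported here. The counting was tested on simulated data. Python 3.11.15, numpy 2.4.6, pandas 2.3.3, scipy 1.17.1 and matplotlib 3.10.9 were used.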

Additional observations from a re-analysis of the deposited data

How the results depend on the processing

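Depth is unknown, and peak number differs between the libraries, so absence of a peak is a limit of detection. No paired analysis was possible because the results come from no test and from a single group. Of 319 alternative values, 263 stayed within the replicate spread or within 1.5 times the count reported above, and 56 moved. Some of those that stayed could not have moved. Marked and unmarked counts do not depend on the breadth window or threshold, nor the number of shared regions on the promoter width. All alternatives were planned.

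Shared regions fell to 41079 (21296 intergenic) when peaks had to cover at least 0.5 of each region in every library. Broad genes numbered 1298 at 3000 bp, 762 by the mean of the libraries, 2489 in a 2 kb window at 2000 bp and 39 by the length of peaks reaching the promoter; narrow genes numbered 3894 by the mean and 2797 by that length, and the median breadth was then 1687 bp. Leaving out each replicate gave 438 to 644 broad genes (most without replicate 2) and 2336 to 3373 narrow genes (most without replicate 3). Broad lineage transcription factors then numbered 17 to 26 and broad Sertoli cell genes 2 to 4. The rule then asks only for the remaining libraries, a looser demand, which by itself pushes these counts up. Of the 15 broadest genes, 1 was kept in the 2 kb window, 5 by peak length and 9 at annotated starts. Of the 15 highest by column 7, 7 to 8 were kept without a replicate (9 to 12 among the highest 150), and 6 with column 9.

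In the 2 kb window, broad genes were 8 for germ cell identity, 1 piRNA, 15 spermatogonial, 2 meiosis, 3 DNA methylation, 6 housekeeping, 5 Sertoli, 7 Leydig, 3 other tissues and 26 lineage factors. At 3000 bp they were 3 germ cell identity, 8 spermatogonial, 1 DNA methylation, 1 housekeeping, 7 Sertoli, 5 Leydig, 5 endothelial and blood, 2 other tissues and 32 lineage factors. By peak length they were 2 spermatogonial, 1 pluripotency, 2 lineage factors and 0 for germ cell identity, Sertoli, Leydig, and endothelial and blood. At annotated starts they were 0 germ cell identity, 2 spermatogonial, 2 pluripotency and 1 Sertoli, with 15 pluripotency, 7 Sertoli, 8 endothelial and blood and 6 other tissue genes marked, over fewer members. With −log10 q of at least 5, 1 Leydig gene was broad.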
